A study of Brassica carinata and Brassica napus and Brassica carinata x Brassica napus with 3 samples.

Results

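Poly(A)-binding proteins of Brassica were followed in floral buds of an interspecific hybrid and its parents, as 148 assembled sequences under 13 Swiss-Prot identifiers, out of 157663 sequences and 10526 identifiers in all. A sequence was a member where its best Swiss-Prot name held the words Polyadenylate-binding protein and the Swiss-Prot score was at least 0.6 of the score of its best Nr hit. The family was chosen by its measured RPKM in these 3 libraries, in which PAB5 was known to be low in the hybrid, so the levels and ratios below are a description and carry no test. The words stood in the names of 223 sequences, of which 75 did not meet the score ratio or had no Nr hit and were not counted. Of the members, 64 sequences belonged to the PAB2, PAB3 and PAB5 identifiers, and 84 to the RBP45 and RBP47 proteins and CID2, whose names hold the same words.

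The groups were the hybrid, which is a cross of the species B. carinata and B. napus, then B. carinata of cultivar W29, and last B. napus of cultivar Zhongshuang 11. All buds were labelled as from the initial flowering stage and no treatment or transgene was labelled. Each group had 1 library, so no difference has a replicate check. The direction of the cross, the generation and ploidy of the hybrid, and the number of plants behind a library are not stated in the labels.

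Poly(A)-binding proteins coat the poly(A) tail of mRNAs through RNA recognition motifs and bring it together with the cap-binding complex, which favours translation and protects the mRNA. In Arabidopsis, PAB2, PAB4 and PAB8 are expressed broadly, whereas PAB3 and PAB5 are expressed mainly in reproductive tissues, PAB5 in pollen and ovules among them. RBP45 and RBP47 proteins are nuclear RNA-binding proteins with motifs of the same kind, and CID2 belongs to the proteins that bind to poly(A)-binding proteins.

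The libraries held 27.1 M counted reads in the hybrid (M, 1000000 reads), 28.1 M in B. carinata and 28.2 M in B. napus. Of these, the family took 0.197% of the reads in the hybrid, 0.193% in B. carinata and 0.177% in B. napus. As a check of the tissue, all 5 floral organ markers were matched in the table, and the petal and stamen gene AP3 had 251.5 RPKM in the hybrid, 350.0 in B. carinata and 195.7 in B. napus. RPKM, reads per kilobase and per M counted reads, was summed over the sequences of an identifier, a sum that weighs short fragments more than long ones. Log2 ratios were taken after adding 1 RPKM, and a difference was called from 2-fold upward, if the higher of both libraries reached 5 RPKM. Ratios of read counts are per counted read, with exact conditional binomial intervals (95%) that cover counting error only.

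Of the identifiers as the rule has them, PAB5 had the lowest hybrid level relative to the mean of both parents. Its 15 sequences summed to 32.4 RPKM in the hybrid, 147 in B. carinata and 395 in B. napus. Their reads were 782 in the hybrid, 3419 in B. carinata and 10706 in B. napus. Thus in the counted sequences the hybrid was low, B. napus was high, and B. carinata stood between them. The 3 PAB5 sequences left out had 1255 reads in the hybrid, 1199 in B. carinata and 1191 in B. napus. These were near level, and in the hybrid they outnumbered the reads counted here. For the counted sequences, the read ratio of the hybrid was 0.238 over B. carinata (interval 0.220 to 0.257) and 0.0761 over B. napus (0.0707 to 0.0819). Between the parents, the read ratio of B. carinata over B. napus was 0.320 (0.308 to 0.333). The log2 ratios of summed RPKM were -2.15 for the hybrid over B. carinata, -3.57 for the hybrid over B. napus and -1.42 for B. carinata over B. napus. The hybrid had 0.119 of the mean of both parental RPKM values. With counted reads scaled by TMM or median-of-ratios factors, PAB5 kept a negative log2 ratio in all 3 comparisons, at -1.97 and -2.46 for the hybrid over B. carinata. Where only the sequence of highest mean stood for each identifier, the ratio of the hybrid over B. carinata was -0.02, because that sequence, Unigene22155 of 320 bases, was low in both. Unigene22155 held 43.7% of the PAB5 RPKM in B. napus, and without it the log2 ratio was -2.29 for the hybrid over B. carinata, -2.92 for the hybrid over B. napus and, under 2-fold, -0.63 for B. carinata over B. napus.

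**Figure D1:**
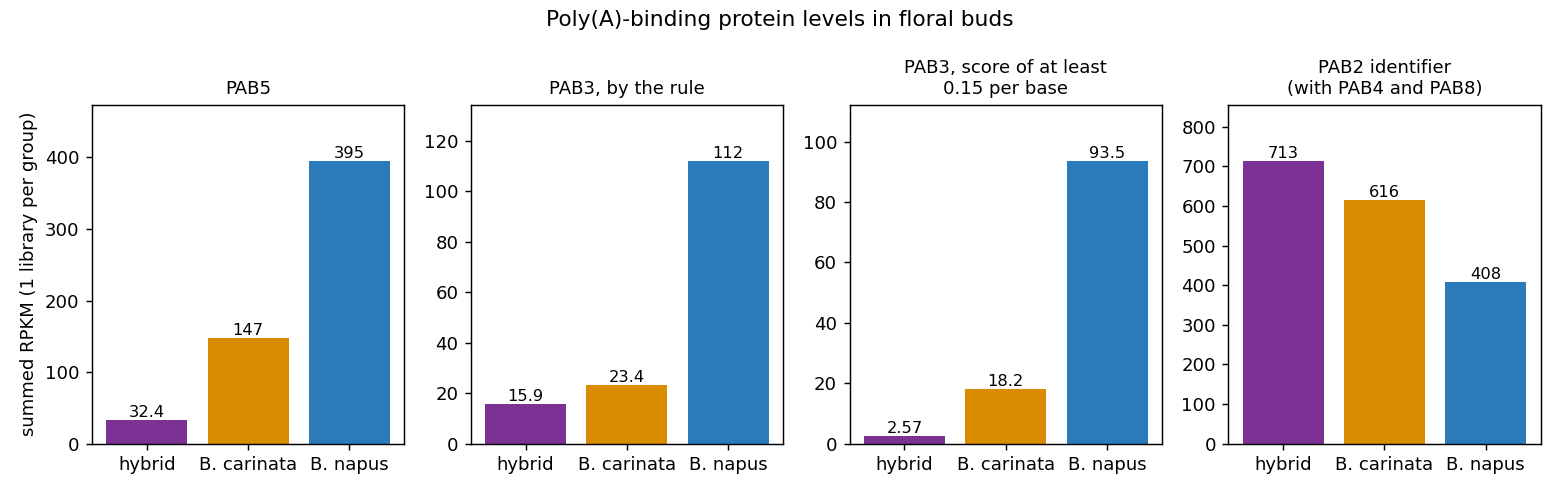
Summed RPKM of PAB5, PAB3 by the rule, PAB3 without weakly scoring sequences, and the PAB2 identifier, with 1 bar per library and an own axis from 0 in each panel; there are no error bars because each group had 1 library. PAB5 stands at 32.4 in the hybrid, 147 in B. carinata and 395 in B. napus, while the PAB2 identifier stands at 713 in the hybrid, 616 in B. carinata and 408 in B. napus.

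PAB3, the other reproductive member, was also lower in the hybrid than in B. napus, but its level depended on which sequences count as PAB3. The log2 ratio of the hybrid over B. napus was -2.75 by the rule, -4.73 for sequences that score at least 0.15 per base and -0.55, under 2-fold, with no score ratio, which adds 15 sequences. By the rule, 10 sequences summed to 15.9 RPKM in the hybrid, 23.4 in B. carinata and 112 in B. napus, from 965 reads in the hybrid, 698 in B. carinata and 3486 in B. napus. One long sequence, CL2001.Contig12 of 2769 bases, held 824 of these reads in the hybrid, 158 in B. carinata and 1416 in B. napus. Its best Nr name was CTC-interacting domain 11 protein and its Swiss-Prot score was 53.9, so its identity as PAB3 is uncertain. A second weak match, Unigene517, scored 57.4 over 1180 bases and had 63 reads in the hybrid, 98 in B. carinata and 9 in B. napus.

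Without the 4 sequences that scored under 0.15 per base, a limit chosen after the values were seen, PAB3 was far lower in the hybrid than in either parent. The remaining 6 sequences summed to 2.57 RPKM in the hybrid, 18.2 in B. carinata and 93.5 in B. napus. They had 66 reads in the hybrid, 432 in B. carinata and 2057 in B. napus, with the libraries ordered as for PAB5. The read ratio of the hybrid over B. carinata was 0.159 (interval 0.121 to 0.206), against 1.44 (1.30 to 1.59) by the rule. Over B. napus the hybrid had 0.0334 of the reads (0.0258 to 0.0427), against 0.289 (0.268 to 0.310) by the rule. The main sequence, CL11811.Contig1, is named PAB3 in Nr and had 57 reads in the hybrid, 357 in B. carinata and 1620 in B. napus. No PAB5 sequence was removed by the same limit. The 15 PAB3 sequences that did not meet the score ratio are outside these values. They had 4077 reads in the hybrid, 6778 in B. carinata and 1738 in B. napus, and in the hybrid they far outnumbered the reads counted here.

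The broadly expressed members fell under 1 Swiss-Prot identifier, that of PAB2, with 39 sequences. This identifier had 713 RPKM in the hybrid, 616 in B. carinata and 408 in B. napus, from 31688 reads in the hybrid, 27601 in B. carinata and 17970 in B. napus. It was highest in the hybrid and lowest in B. napus, the reverse of the order for PAB5. The read ratio of the hybrid was 1.19 over B. carinata (interval 1.17 to 1.21) and 1.84 over B. napus (1.80 to 1.87), and all 3 differences were under 2-fold. The log2 ratio of the hybrid over B. carinata was 0.21 as deposited and 0.39 with TMM factors, but -0.10 with median-of-ratios factors, so its direction depends on the scaling. Over B. napus the log2 ratio of the hybrid was 0.81 as deposited and 0.77 with median-of-ratios factors, and with TMM factors it passed 2-fold at 1.26.

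PAB4 and PAB8 could be told apart from PAB2 only by the names of the best Nr hits. The 7 sequences named PAB2 in Nr summed to 233 RPKM in the hybrid, 178 in B. carinata and 137 in B. napus. A further 4 sequences named PAB4 summed to 153 RPKM in the hybrid, 130 in B. carinata and 127 in B. napus. Another 5 sequences named PAB8 summed to 36.2 RPKM in the hybrid, 40.4 in B. carinata and 33.6 in B. napus. Among sequences with these names, PAB8 was thus the lowest of the 3 in every library, and no library of it was 2-fold from another. Sequences under the identifier with other Nr names could not be assigned to any of the 3, so this order is not settled. The read ratio of the hybrid over B. napus was 2.11 for PAB2 (interval 2.05 to 2.18), 1.37 for PAB4 (1.32 to 1.41) and 1.08 for PAB8 (1.01 to 1.15). Another 23 sequences under the identifier had a different Nr name. They summed to 291 RPKM in the hybrid, 268 in B. carinata and 110 in B. napus. Much of the identifier's lower level in B. napus thus came from sequences that Nr does not name as a PAB. Some of them were strong matches to the identifier that carry only a general name in Nr. Unigene680 scored 637 over 1473 bases and had 59.8 RPKM in the hybrid, 48.9 in B. carinata and 0.0962 in B. napus. Another, Unigene39472, was a weak match that scored 59.3 over 509 bases. It had 97.5 RPKM in the hybrid and 70.4 in B. carinata, but was listed at 0 in B. napus. With at least 0.15 per base required, 27 of the 39 sequences of the identifier remained. These summed to 589 RPKM in the hybrid, 537 in B. carinata and 371 in B. napus, which keeps the order of the libraries.

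Near-identical copies of PAB2, PAB4 and PAB8 can share reads, and how the authors' counting split them is not given in the sources used here. At the limit of the score ratio stood a pair of sequences with a PAB4 name in Nr. CL16176.Contig5 was just outside at a ratio of 0.588, with 51 reads in the hybrid, 76 in B. carinata and 3 in B. napus. CL16176.Contig4 was just inside at 0.628, with 534 reads in the hybrid, 76 in B. carinata and 759 in B. napus.

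Set against each other within a library, which no scaling of libraries changes, PAB5 and the PAB2 identifier were furthest from each other in the hybrid. The ratio of PAB5 to the PAB2 identifier in RPKM was 0.0454 in the hybrid, 0.239 in B. carinata and 0.968 in B. napus. Without Unigene22155 it was 0.0400 in the hybrid, 0.233 in B. carinata and 0.545 in B. napus, so the value of B. napus rests in large part on that fragment. The ratio of the hybrid was 5.27 times lower than that of B. carinata and 21.3 times lower than that of B. napus, and that of B. carinata was 4.05 times lower than that of B. napus. In reads the ratio was 0.0247 in the hybrid (interval 0.0230 to 0.0265), 0.124 in B. carinata (0.120 to 0.128) and 0.596 in B. napus. As a share of all family reads, PAB5 made up 1.46% in the hybrid, 6.29% in B. carinata and 21.4% in B. napus, and the PAB2 identifier made up 59.3% in the hybrid, 50.8% in B. carinata and 36.0% in B. napus.

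Most counted PAB5 sequences were far higher in one parent than in the other, and the hybrid was low for sequences higher in either. A sequence was called leaning to a parent where its share of the library's reads was at least 2-fold higher than in the other parent, with at least 10 reads. Leaning is a difference in reads and does not show from which parent a copy came. Of the PAB5 sequences, 9 had at least 10 reads in both parents. The 8 PAB5 sequences leaning to B. carinata had 239 reads in the hybrid, 2109 in B. carinata and 98 in B. napus. Those leaning to B. napus, 6 in all, had 539 reads in the hybrid, 1295 in B. carinata and 10593 in B. napus. Relative to the parent leaned to, the hybrid had 0.118 of the reads of B. carinata for the first set (interval 0.103 to 0.135), and 0.0530 of the reads of B. napus for the second (0.0486 to 0.0578). All 14 were below 0.25 of the parent they leaned to, beside 19.3% of all sequences leaning to B. carinata and 20.4% of those leaning to B. napus. The 14 may be fragments of fewer genes and so are not independent. Picking sequences for a high level in a parent itself lowers their ratio to that parent. PAB5 was also known to be low in the hybrid, so nothing is read from this count.

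The sequences of the PAB2 identifier differed from those of PAB5 in this measure. Its 10 sequences leaning to B. carinata had 0.924 of that parent's reads in the hybrid, and its 10 leaning to B. napus had 0.844, with 1 of 10 below 0.25 in each set. Per sequence the median was lower, at 0.651 for those leaning to B. carinata and 0.635 for those leaning to B. napus. Over all sequences in the files, the hybrid had 0.579 of the reads of B. carinata for the 51692 sequences leaning there and 0.540 of the reads of B. napus for the 41311 leaning there. The median per sequence was 0.513 for those leaning to B. carinata and 0.4998 for those leaning to B. napus. The share below 0.25 was 19.3% for sequences leaning to B. carinata and 20.4% for those leaning to B. napus. For the RBP45 and RBP47 sequences, the hybrid had 0.535 of the reads of B. carinata for 32 sequences leaning there, of which 12.5% were below 0.25. It had 0.696 of the reads of B. napus for 20 leaning there, of which 5% were below 0.25. For PAB3 at 0.15 per base, the 3 sequences that leaned all leaned to B. napus, and the hybrid had 0.0327 of that parent's reads (interval 0.0251 to 0.0419).

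Single PAB5 sequences show the pattern. Unigene679, the longest at 2015 bases, had 128 reads in the hybrid, 188 in B. carinata and 4260 in B. napus. Unigene690 had 128 reads in the hybrid, 222 in B. carinata and 1751 in B. napus, and Unigene22155 had 33 in the hybrid, 35 in B. carinata and 1560 in B. napus. In these 3 sequences the hybrid and B. carinata were both low and B. napus alone was high. CL21593.Contig1 had 44 reads in the hybrid, 239 in B. carinata and 1374 in B. napus, and Unigene686 had 172 in the hybrid, 547 in B. carinata and 1299 in B. napus, so that the hybrid stood below both parents. CL21593.Contig2 had 39 reads in the hybrid and 678 in B. carinata, and was listed at 0 in B. napus. Unigene16724 had 117 reads in the hybrid, 675 in B. carinata and 47 in B. napus, and Unigene52999 had 34 in the hybrid, 416 in B. carinata and 49 in B. napus, so that in these 3 sequences B. carinata alone was high.

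**Figure D2:**
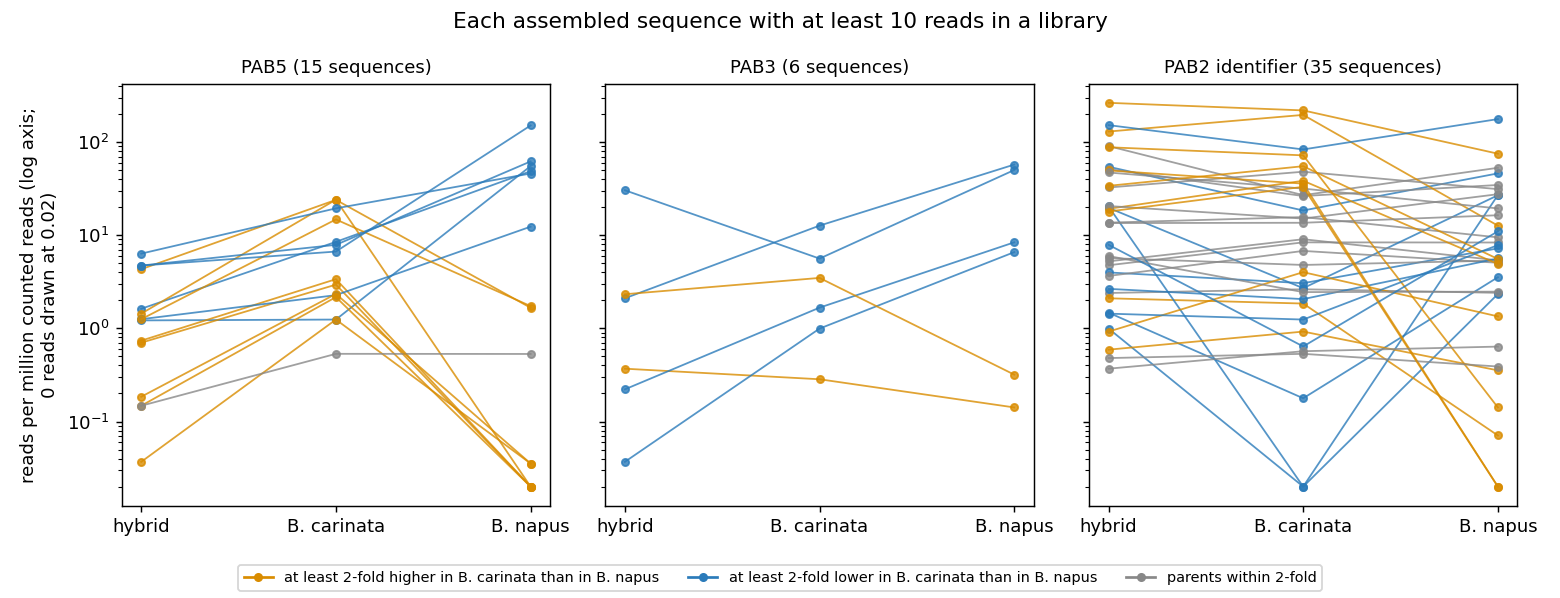
Reads per 1000000 counted reads of each PAB5, PAB3 and PAB2 identifier sequence with at least 10 reads in a library, on a log axis with 0 drawn at 0.02; each line is 1 sequence and its colour marks the parent it leans to. The PAB5 lines of both colours are low on the left, while those of the PAB2 identifier have medians of 0.651 and 0.635 of the parent they lean to, B. carinata and B. napus.

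The largest sequences of the PAB2 identifier behaved otherwise. CL1112.Contig2, named PAB2 in Nr, had 7154 reads in the hybrid, 6162 in B. carinata and 2121 in B. napus. CL16176.Contig2, named PAB4, had 3517 reads in the hybrid, 5514 in B. carinata and 358 in B. napus. CL16176.Contig3, also named PAB4, had 4121 reads in the hybrid, 2347 in B. carinata and 4988 in B. napus. These PAB4 sequences leaned to opposite parents and the hybrid stood between the parents for both.

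Among the RBP45 proteins, RBP45C was the most abundant and was close to level. It had 244 RPKM in the hybrid, 245 in B. carinata and 196 in B. napus over 28 sequences. RBP45B had 17.6 RPKM in the hybrid, 21.5 in B. carinata and 13.8 in B. napus. RBP45A rested on 1 sequence with 42 reads in the hybrid, 140 in B. carinata and 0 in B. napus. Relative to B. napus, with its 0 set to 3 reads, the library share of these reads was at least 14.6 times higher in the hybrid and at least 46.8 times higher in B. carinata. That sequence scored only 59.7 over 963 bases and its best Nr hit was an algal predicted protein, so its identity is uncertain, and its count takes no part once 0.15 per base is required. The tobacco-named RBP45 had at most 16 reads in a library and stayed under 5 RPKM.

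Among the RBP47 proteins, RBP47A and RBP47B were within 2-fold in all 3 comparisons. RBP47A had 99.6 RPKM in the hybrid, 109 in B. carinata and 83.7 in B. napus, and RBP47B had 52.3 RPKM in the hybrid, 73.3 in B. carinata and 52.2 in B. napus. RBP47B' had 110 RPKM in the hybrid, 125 in B. carinata and 59.1 in B. napus, with B. napus low. Part of this difference came from Unigene33723, a weak match that scored 112 over 1224 bases, so its identity is uncertain. It had 681 reads in the hybrid, 1148 in B. carinata and 1 in B. napus. With at least 0.15 per base required, RBP47B' had a log2 ratio of 0.63 for B. carinata over B. napus, under 2-fold, against 1.07 by the rule. RBP47C had 16.4 RPKM in the hybrid, 51.1 in B. carinata and 19.1 in B. napus, so that the hybrid was near B. napus and B. carinata alone was high. The read ratio of RBP47C was 0.318 for the hybrid over B. carinata (interval 0.291 to 0.346) and 0.929 for the hybrid over B. napus (0.837 to 1.03). RBP47C', on 1 sequence, had 55 reads in the hybrid, 9 in B. carinata and 209 in B. napus, so that B. napus was high. Its read ratio for the hybrid over B. napus was 0.274 (0.200 to 0.371). RBP47C and RBP47C' are close copies whose reads may be split between them, and their values are uncertain for that reason. CID2 had 29.6 RPKM in the hybrid, 33.3 in B. carinata and 16.6 in B. napus.

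Counted by identifier, 0 of the 11 members that reached 5 RPKM passed 2-fold upward in the hybrid against B. carinata, where 3.81% of all identifiers did, and 3 of 11 were lower (PAB5, RBP45A and RBP47C), where 8.44% of all identifiers were. Against B. napus, 0 of 11 were higher in the hybrid, where 8.51% of all identifiers were, and 3 of 11 were lower (PAB3, PAB5 and RBP47C'), where 8.07% were. Between the parents, 3 of 12 were higher in B. carinata than in B. napus (RBP45A, RBP47B' and RBP47C), where 18.3% of all identifiers were, and 3 of 12 were lower (PAB3, PAB5 and RBP47C'), where 12.8% were. Of those higher, RBP45A and RBP47B' rest on weak matches, and with 0.15 per base required only RBP47C was still called. PAB5 was the 1 of 12 members that was 2-fold below both parents in the hybrid, a pattern shown by 1.23% of all identifiers. The family was chosen with these contrasts known, so nothing is read from these counts. With TMM factors, 3 members (the PAB2 identifier, RBP47B' and CID2) passed 2-fold upward in the hybrid against B. napus.

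Counted by sequence, 13 of 76 members were higher in the hybrid than in B. carinata, where 19.0% of all sequences were, and 17 of 76 were lower, where 17.6% were. Against B. napus, 24 of 74 were higher in the hybrid, where 28.1% of all sequences were, and 11 of 74 were lower, where 15.6% were. Between the parents, 34 of 84 were higher in B. carinata than in B. napus, where 41.8% of all sequences were, and 30 of 84 were lower, where 33.0% were. These shares were close to the background. In 5 of 84 sequences the hybrid was 2-fold below both parents, against 0.614% of all sequences. They were CL11811.Contig1, CL21893.Contig1 and Unigene47924 of PAB3, and CL21593.Contig1 and Unigene686 of PAB5. These sequences may be fragments of fewer genes. The family was chosen with these contrasts known, so nothing is read from this count.

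The median log2 ratio of the measured members was -0.28 for the hybrid over B. carinata, 0.25 for the hybrid over B. napus and 0.54 for B. carinata over B. napus. Over all identifiers the median was -0.08 for the hybrid over B. carinata, 0.01 for the hybrid over B. napus and 0.07 for B. carinata over B. napus. TMM factors moved the median of all identifiers by 0.18 for the hybrid over B. carinata, 0.45 for the hybrid over B. napus and 0.28 for B. carinata over B. napus. With median-of-ratios factors it moved by -0.30 for the hybrid over B. carinata, -0.03 for the hybrid over B. napus and 0.28 for B. carinata over B. napus. Relative to the median identifier, PAB5 was at -2.08 for the hybrid over B. carinata and -3.58 for the hybrid over B. napus as deposited. Both sets of factors gave nearly the same values. A factor per library moves PAB5 and the median alike, so this sameness was fixed in advance and is no check. For the hybrid over B. carinata, 154 of 8067 identifiers had a lower ratio than PAB5, and for the hybrid over B. napus 87 of 8089. PAB5 was known to be low in the hybrid when the family was chosen, so nothing is read from these ranks. Between the parents, 642 of 8460 had a lower ratio than PAB5 for B. carinata over B. napus.

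**Figure D3:**
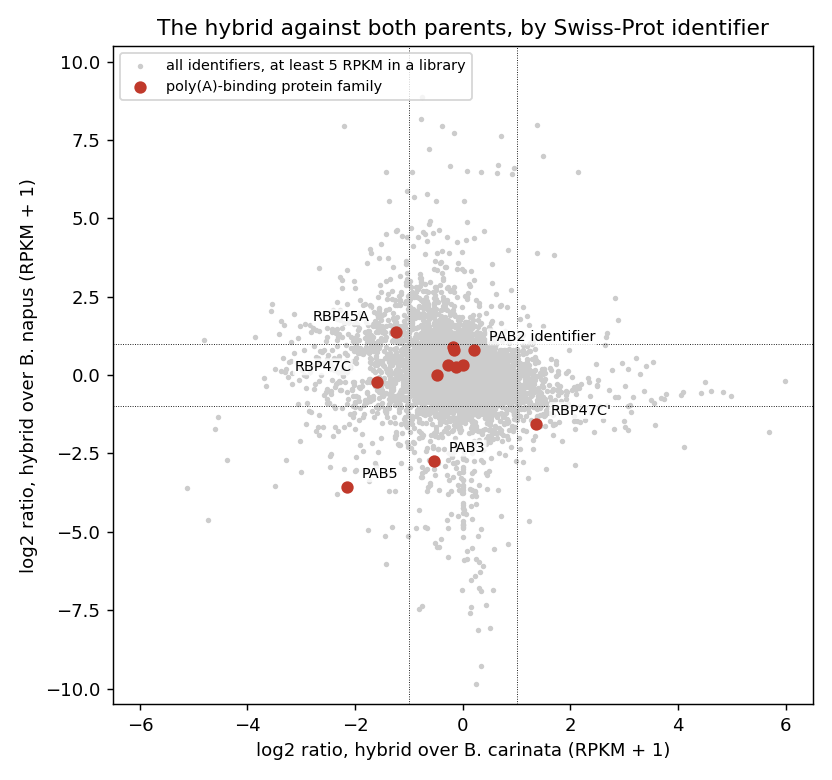
Log2 ratio of the hybrid over B. carinata (horizontal) and of the hybrid over B. napus (vertical), on summed RPKM plus 1, for all Swiss-Prot identifiers with at least 5 RPKM in a library (grey) and the family (red); dotted lines mark 2-fold. PAB5, at -2.15 and -3.57, is the red point below 2-fold on both axes, and PAB3 by the rule, at -0.54 and -2.75, is below it on the vertical axis.

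Markers of pollen and of other cell types moved between the same libraries. Of 27 late pollen and pollen tube genes, 15 were matched, and their summed RPKM was 207 in the hybrid, 187 in B. carinata and 598 in B. napus. Without the profilin PRO5, which had 149.7 RPKM in the hybrid, the sum was 56.8 RPKM in the hybrid, 76.7 in B. carinata and 472 in B. napus. Of the 11 with at least 5 RPKM in a library, 8 were lower by 2-fold in the hybrid than in B. napus (8.07% of all identifiers) and 7 in B. carinata than in B. napus (12.8%), with AHA6 at 0.385 RPKM in the hybrid, 0.989 in B. carinata and 55.5 in B. napus. Between the hybrid and B. carinata, 6 of them reached 5 RPKM, of which 1 was 2-fold lower in the hybrid (8.44% of all identifiers), and the median log2 ratio of the 6 was -0.24. VGDH2 was listed at 0 in the hybrid and in B. carinata, and ADF10 was listed at 0 in B. carinata. The 1 lower marker was AKT6, with 12 reads in the hybrid, 83 in B. carinata and 69 in B. napus. Markers with few reads went both ways between the hybrid and B. carinata. AHA6 had 35 reads in the hybrid and 83 in B. carinata, and AHA8 had 12 in the hybrid and 23 in B. carinata. In contrast, ADF10 had 11 in the hybrid and 0 in B. carinata, and PPME1 had 9 in the hybrid and 7 in B. carinata. CPK17, with more reads, had 299 in the hybrid, 285 in B. carinata and 255 in B. napus.

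Tapetum and exine genes had the highest level in B. carinata. The 9 matched of 19 summed to 1153 RPKM in the hybrid, 4636 in B. carinata and 879 in B. napus. All 9 were lower by 2-fold or more in the hybrid than in B. carinata, where 8.44% of all identifiers were. All 9 were higher in B. carinata than in B. napus, where 18.3% of all identifiers were, and 3 of 8 were higher in the hybrid against B. napus, where 8.51% were. PAB5 was lower in the hybrid than in B. carinata too, but highest in B. napus. Of 7 meiosis genes, 4 were matched, and they summed to 72.4 RPKM in the hybrid, 50.6 in B. carinata and 75.4 in B. napus. Of the 4, 2 were higher by 2-fold in the hybrid than in B. carinata and 0 were lower, beside 3.81% and 8.44% of all identifiers. MSH4 had 38.4 RPKM in the hybrid, 14.9 in B. carinata and 50.5 in B. napus. In contrast, MSH5 and ZYP1A were highest in B. carinata, at 11.4 and 21.5 RPKM. What part cell composition had in the PAB5 and PAB3 differences was not tested. In whole buds, fewer cells of a type and less RNA per cell cannot be told apart.

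**Figure D4:**
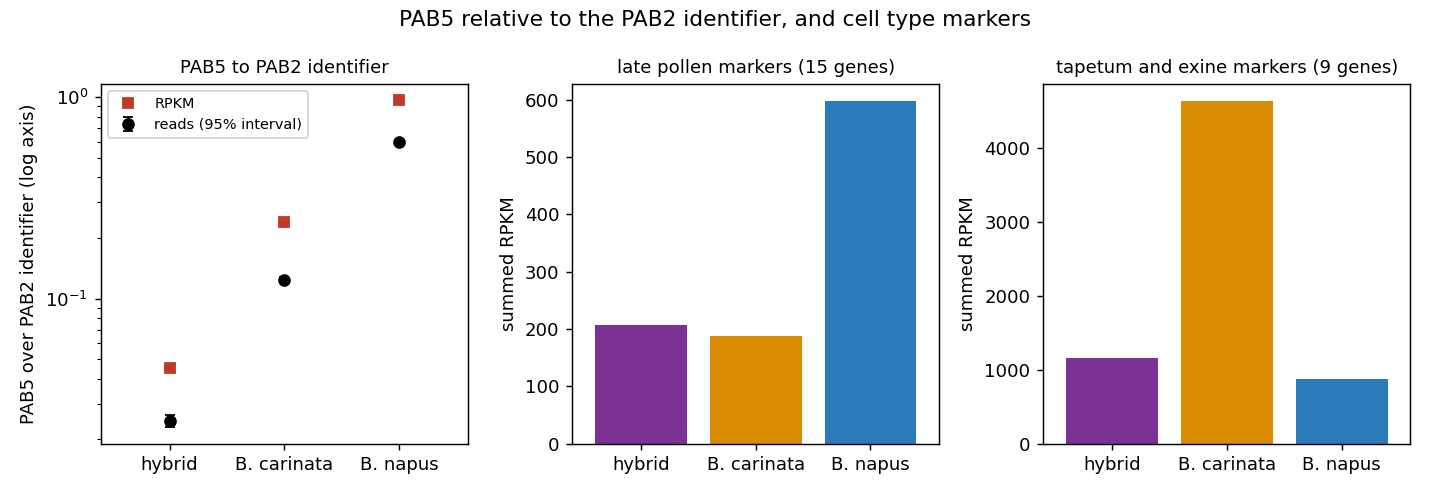
Left, ratio of PAB5 to the PAB2 identifier in each library on a log axis, in reads with the 95% interval and in RPKM; middle and right, summed RPKM of the late pollen and of the tapetum and exine markers. The ratio is lowest in the hybrid, at 0.0454 in RPKM, the pollen markers are high in B. napus alone, at 598, and the tapetum markers are high in B. carinata alone, at 4636.

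Identifiers whose pattern over the 3 libraries was most like that of PAB5 were searched among 4462 identifiers with a mean of at least 20 RPKM, by the Euclidean distance of log2 levels centred on each identifier's own mean. The nearest was the lipase EXL4, at a distance of 0.497, with 50.2 RPKM in the hybrid, 155 in B. carinata and 383 in B. napus. Next were S-adenosylmethionine decarboxylase 2 at 0.694, phospholipase D alpha 2 at 0.722, copper transporter 3 at 0.784 and the amino acid transporter LHT2 at 0.840. For the PAB2 identifier the nearest was the aquaporin PIP1-4, at a distance of 0.00812, with 263 RPKM in the hybrid, 227 in B. carinata and 151 in B. napus. With 3 libraries such likeness is a description.

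Other genes that act on the poly(A) tail and the cap were counted in 5 lists, which were chosen with earlier results of these data known. The cap-binding complex, which poly(A)-binding proteins contact through eIF4G, had 1 of 13 measured identifiers higher and 0 lower in the hybrid than in B. carinata, beside 3.81% and 8.44% of all identifiers. Against B. napus 0 of 12 were higher and 0 lower in the hybrid, beside 8.51% and 8.07%. The eIF4A helicase eIF4A-1 had 831 RPKM in the hybrid, 1067 in B. carinata and 431 in B. napus. A wheat-named eIF4A had 34.3 RPKM in the hybrid, 12.4 in B. carinata and 55.1 in B. napus, and a tobacco-named eIF4A-7 had 2.79 RPKM in the hybrid and 6.44 in B. carinata and was listed at 0 in B. napus. Between the parents, 4 of the 13 were higher in B. carinata than in B. napus and 1 was lower, beside 18.3% and 12.8%.

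Of the enzymes that remove the poly(A) tail, 4 of 15 were lower and 0 higher in the hybrid than in B. carinata, beside 8.44% lower and 3.81% higher over all identifiers. Against B. napus, 2 of 12 were higher and 0 lower in the hybrid, beside 8.51% and 8.07%. Between the parents 5 of 15 were higher in B. carinata than in B. napus and 1 was lower, beside 18.3% and 12.8%. Nothing is read from these counts about the list. The CAF1 deadenylase homolog 1 had 3.90 RPKM in the hybrid, 45.0 in B. carinata and 2.65 in B. napus. CAF1 homolog 7 had 7.27 RPKM in the hybrid, 26.1 in B. carinata and 2.70 in B. napus, and CAF1 homolog 5 had 0.293 RPKM in the hybrid, against 9.998 in B. carinata, and was listed at 0 in B. napus. In these 3 genes B. carinata alone was high, unlike PAB5.

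Of 8 measured decapping and decay genes, 0 passed 2-fold in either comparison of the hybrid, where 3.81% to 8.51% of all identifiers passed in each direction. Between the parents 2 were higher in B. carinata than in B. napus, beside 18.3%. The decapping scaffold VCS had 57.2 RPKM in the hybrid, 86.0 in B. carinata and 37.2 in B. napus, and the exonuclease XRN4 had 18.6 RPKM in the hybrid, 25.1 in B. carinata and 11.6 in B. napus. Its relative XRN2 had 31.3 RPKM in the hybrid, 27.9 in B. carinata and 18.8 in B. napus. Of 5 poly(A) addition factors, 0 passed 2-fold in any of the 3 comparisons, where 3.81% to 18.3% of all identifiers passed in each direction. CPSF1 had 24.5 RPKM in the hybrid, 19.2 in B. carinata and 19.96 in B. napus, and CPSF30 had 29.4 RPKM in the hybrid, 34.7 in B. carinata and 29.0 in B. napus. Subunit 3-II of that complex had 9.99 RPKM in the hybrid, 6.91 in B. carinata and 11.5 in B. napus.

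Of the 3 release factors, which end translation and bind poly(A)-binding proteins through a partner, 1 was higher in the hybrid, and the same one in B. carinata, than in B. napus, beside 8.51% of all identifiers for the hybrid and 18.3% for B. carinata. That gene, eRF1-2, had 15.9 RPKM in the hybrid, 29.4 in B. carinata and 3.41 in B. napus. Its relatives were nearer to level, with eRF1-1 at 23.2 RPKM in the hybrid, 34.8 in B. carinata and 45.1 in B. napus, and eRF1-3 at 34.8 RPKM in the hybrid, 34.3 in B. carinata and 44.1 in B. napus.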

How the data were processed

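Per the labels' protocols, Trizol was used to extract floral bud RNA, DNase treatment followed, and 3 libraries were sequenced, 1 per group. The authors deposited 1 table with raw read counts and RPKM per assembled sequence, per the file headers, and the scores of the best Nr, Nt and Swiss-Prot hits were deposited beside them. How sequences were assembled and reads aligned and counted is not given in the sources used here. Every deposited RPKM value (100%) equalled count over length and library total, within 5e-05.

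Member sequences were summed per Swiss-Prot identifier in Python 3.11.15 with pandas 2.3.3 and SciPy 1.17.1, after tests on simulated data. Scaling factors came from edgeR 4.0.16 (TMM) and from the median of ratios, and no model was fitted with 1 library per group. The members and lists were chosen with earlier results of these data known.

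Named were the PAB proteins, every other family identifier with at least 5 RPKM in a library, sequences with at least 10% of the reads of a PAB member, up to 3 identifiers per list with the largest hybrid log2 ratio, and the 5 nearest patterns (for the PAB2 identifier 1 is printed). The limit of 0.15 per base, the grouping by Nr name, the leaning sets and the values without PRO5 or Unigene22155 were chosen after seeing the data. Intervals are 95%, cover counting error only and treat reads as independent molecules. A count of 0 was set to 3 reads for bounds.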

Additional observations from a re-analysis of the deposited data

How the results depend on the processing

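PAB5 had a negative log2 ratio in all 3 comparisons under all 11 alternatives that recompute it, from -5.17 to -2.88 for the hybrid over B. napus and from -2.46 to -0.02 for the hybrid over B. carinata. The value of -0.02 came from taking the sequence of highest mean per identifier, the alternative under which the hybrid also lost its 2-fold difference from B. carinata. The ratio of PAB5 to the PAB2 identifier kept the order hybrid, B. carinata, B. napus from low to high under every alternative. From summed RPM it was 0.0247 in the hybrid, 0.124 in B. carinata and 0.596 in B. napus. From the sequence of highest mean it was 0.0353 in the hybrid, 0.0435 in B. carinata and 5.64 in B. napus. From sequences of at least 500 bases it was 0.0280 in the hybrid, 0.176 in B. carinata and 0.513 in B. napus. A score ratio of 0.8 gave 0.0606 in the hybrid, 0.326 in B. carinata and 1.503 in B. napus, and no score ratio gave 0.0518 in the hybrid, 0.184 in B. carinata and 0.601 in B. napus. At 0.15 per base it was 0.0549 in the hybrid, 0.274 in B. carinata and 1.06 in B. napus, and with sequences found in all 3 libraries it was 0.191 in B. carinata and 1.03 in B. napus.

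Among differences past 2-fold, signs turned in 2 cases, both of B. carinata over B. napus: RBP47B' was -1.06 with the sequence of highest mean (1.07 as reported), and PAB3 was 0.11 with no score ratio (-2.21 by the rule). PAB3 of the hybrid over B. carinata ranged from -2.42 at 0.15 per base to 0.51 from summed RPM. For the hybrid over B. napus it was -0.55 with no score ratio (-2.75 by the rule). For the hybrid over B. napus, the number of family identifiers called higher was 3 with TMM factors, 5 with the sequence of highest mean, and 1 with no minimum RPKM, a score ratio of 0.8 or no score ratio (0 as reported). Higher in the hybrid than in B. carinata was 1 with no minimum RPKM and 1 from sequences in all 3 libraries (0 as reported). Between the parents the sequence of highest mean gave 6 identifiers higher and 5 lower in B. carinata, and 0.15 per base gave 1 higher (3 and 3 as reported). The causes were not tested.

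Over all identifiers, 31.1% of the calls of the hybrid over B. carinata were higher, against 46.4% with TMM factors and 12.9% with median-of-ratios factors. For the hybrid over B. napus this share was 51.3%, against 81.2% with TMM and 48.4% with median-of-ratios factors, and for B. carinata over B. napus it was 58.9%, against 73.7% with TMM and 73.3% with median-of-ratios factors. No paired analysis was possible because each group had 1 library. With 1 library per group, plant, staging and handling cannot be told apart from the group. A floor of 3 reads is 0.111 RPM (reads per 1000000) in the hybrid, 0.107 in B. carinata and 0.106 in B. napus.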

Other observations

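Sequences that carry the family's words in their name but did not meet the score ratio had levels of their own. The largest such set, 38 sequences of the PAB2 identifier, had 15731 reads in the hybrid, 11862 in B. carinata and 14136 in B. napus. In that set B. carinata had the fewest reads, unlike in the counted sequences of the identifier. The 3 such PAB5 sequences had 1255 reads in the hybrid, 1199 in B. carinata and 1191 in B. napus, and the 15 such PAB3 sequences had 4077 in the hybrid, 6778 in B. carinata and 1738 in B. napus. A Nicotiana plumbaginifolia RBP47 match, of 7 sequences, had 6459 reads in the hybrid, 4854 in B. carinata and 4871 in B. napus. A further relative, whose name begins with Probable and which the spelling of the rule leaves out (At2g36660, 6 sequences), had 892 reads in the hybrid, 980 in B. carinata and 851 in B. napus.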
